A study of Mus musculus with 60 samples.

Results

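The collagen alpha chain genes were taken as the gene symbols made of Col, a number, a lower-case a and a number that the deposited differential expression tables listed in any of their 10 comparisons, and 33 of the 49315 genes in the count tables met that rule. The annotation held 44 such symbols, and the 11 outside the rule had 2 to 440 counts summed over all mice, against 180 to 31086 for the 33 members. Each of those tables listed genes with at least 121 counts over its 12 mice and none with 120 or fewer, so membership rested on the level in some pair of groups: 14 of the 33 chains were in all 10 tables and 4 in 1 table alone. The chains were followed in whole blood RNA from 60 male CD2F1 mice, 6 in each of 10 groups. BIO 300, an oral powder of the isoflavone genistein, was given by gavage 2 times a day for 6 days at 50 mg/kg (low dose), 100 mg/kg (middle dose) or 200 mg/kg (high dose), and control mice were given its vehicle. Unirradiated mice on vehicle or each of the 3 doses were bled 24 h after dosing had ended, which is Day 0, or 48 h after it, which is Day 1, and 2 further groups, on vehicle or 200 mg/kg, received 9.2 Gy of 60Co total-body irradiation (TBI) on Day 0 and were bled on Day 1, 24 h after TBI. All groups, vehicle included, were gavaged, and every blood sample was a terminal bleed from the inferior vena cava under isoflurane, so that each mouse gave 1 sample at 1 time.

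Collagens are extracellular proteins in which alpha chains wind into a triple helix, either of identical chains or of partner chains from different genes. Fibrillar chains build the ropes of connective tissue, network chains build basement membranes and related sheets, fibril-associated chains (the FACIT group) decorate the fibrils, beaded filament chains form the type VI family, multiplexins sit around basement membranes, and transmembrane chains stay anchored in the cell surface. The main producers of most of them are fibroblasts, smooth muscle, bone, cartilage and endothelial cells, none of which is a usual constituent of circulating blood, whereas platelets carry receptors that bind collagen at an injured vessel wall. Of the 33 members, 8 were fibrillar, 6 FACIT, 5 basement membrane network, 6 beaded filament, 3 hexagonal network, 2 multiplexin and 3 transmembrane chains.

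The upstream sequences of the 4 chains on which most of the results turn are shown to place them in the genome and to show how their start regions differ: Col5a1 and Col1a2, fibrillar chains that differed between groups, Col6a4, the chain with the highest median per length in mice without tissue RNA, and Col18a1, a multiplexin chain whose level ran over the widest range between mice. Each is the longest run, among the 250 bases before the RefSeq transcript start on GRCm38, that no annotated untranslated region covers. They are written 5′ to 3′ along the gene and lie at chr2:27886175-27886424 (plus strand) for Col5a1, chr6:4505370-4505492 (plus) for Col1a2, chr9:106096784-106096941 (minus) for Col6a4 and chr10:77166549-77166780 (minus) for Col18a1. For Col1a2 the start is that of the transcript that runs to the gene's end, and the stretch lies inside the gene body because another annotated transcript starts at 4504814. Capitals mark matches to a GC box (GGGCGG or its reverse complement CCGCCC) or a CCAAT box (CCAAT or ATTGG).
Col5a1: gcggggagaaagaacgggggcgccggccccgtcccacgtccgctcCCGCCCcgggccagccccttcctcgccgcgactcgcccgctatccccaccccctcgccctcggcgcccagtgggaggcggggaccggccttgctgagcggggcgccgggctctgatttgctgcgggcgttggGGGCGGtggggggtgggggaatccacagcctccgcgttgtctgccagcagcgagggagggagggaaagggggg
Col1a2: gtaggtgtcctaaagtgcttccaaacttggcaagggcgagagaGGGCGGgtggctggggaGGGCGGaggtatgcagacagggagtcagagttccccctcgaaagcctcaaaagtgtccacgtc
Col6a4: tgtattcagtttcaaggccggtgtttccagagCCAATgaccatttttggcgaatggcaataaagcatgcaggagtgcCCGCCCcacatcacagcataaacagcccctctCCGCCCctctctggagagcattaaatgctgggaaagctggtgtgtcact
Col18a1: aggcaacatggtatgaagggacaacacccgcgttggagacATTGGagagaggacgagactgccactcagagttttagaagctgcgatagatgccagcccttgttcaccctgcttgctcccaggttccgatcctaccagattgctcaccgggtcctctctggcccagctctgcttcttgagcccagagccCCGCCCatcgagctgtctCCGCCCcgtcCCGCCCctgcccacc
The stretches of Col5a1 and Col1a2 each held 2 GC boxes and no CCAAT box, that of Col6a4 held 2 GC boxes and 1 CCAAT box, and that of Col18a1 held 3 GC boxes and 1 CCAAT box. None of the 4 stretches held TATAAA or TTTATA. Those of Col1a2 (123 bases), Col6a4 (158) and Col18a1 (232) are shorter than 250 bases, so these counts do not describe their whole start regions. Of the 26 members with an entry in the RefSeq promoter table, 17 had a GC box, 9 a CCAAT box and 5 a TATAAA match in their 300-base window, and the shares over all 32851 windows were 35.7%, 37.4% and 13.6%. The gene bodies lie at chromosome 2, 27886425 to 28039514 for Col5a1, chromosome 6, 4504814 to 4541544 for Col1a2, chromosome 9, 105989454 to 106096783 for Col6a4, chromosome 10, 77052178 to 77166548 for Col18a1 and chromosome 4, 47208161 to 47313167 for Col15a1, and the counts are sums over the exons of each gene, untranslated regions included.

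Each library held 15099415 to 45589415 counts on genes, with a median of 24877994, and the 33 chains together took 0.000769% to 0.0810% of them. Levels are counts per 1000000 scaled between libraries by trimmed mean of M-values (CPM), so a count of 0 (allowing up to 3 counts) still left room for 0.0552 to 0.360 CPM, depending on the library. Tissue RNA was sought in each mouse with marker lists, and a mouse was said to carry it when at least 50% of the genes of a hepatocyte, adipocyte, fibroblast, mesothelial, smooth muscle or pancreatic acinar list reached 10 CPM. This held for 13 mice: 11 met the hepatocyte list and 5 the adipocyte list, 3 of them both, and no other list was met. The 13 were spread unevenly, with 1 in each vehicle group without TBI, 1 in each of the 3 dosed groups of Day 0, none at the low dose, 3 at the middle dose and 1 at the high dose on Day 1, and 2 in each irradiated group. In whole blood, fewer cells of a type and less RNA per cell cannot be told apart.

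Presence was set at 0.25 CPM, and by that measure the chains fell into 3 classes. 5 chains were present in every one of the 60 mice: the fibrillar Col5a1 and Col11a2, the FACIT chain Col20a1 and both multiplexins, Col15a1 and Col18a1. Another 26 were present in some mice without tissue RNA, and 2, the FACIT chain Col16a1 (5 mice) and the transmembrane chain Col13a1 (4 mice), reached the limit in mice with tissue RNA alone; these last 2 are named although the rule for named genes does not reach them, after their values were seen. None of the 33 was missing from all mice. The 47 mice without tissue RNA had 10 to 28 chains present with a median of 17, and the 13 with tissue RNA had 19 to 33 with a median of 22. In 6 mice, all at 100 or 200 mg/kg on Day 1, 3 counts corresponded to more than 0.25 CPM, so a chain below the limit there was not detectable at that depth. The class of a chain depended on the limit: at 0.1 CPM Col6a4 joined the chains of every mouse and no chain was left to tissue mice alone, whereas at 1 CPM no chain was in every mouse and 9 were in tissue mice alone.

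**Figure D1:**
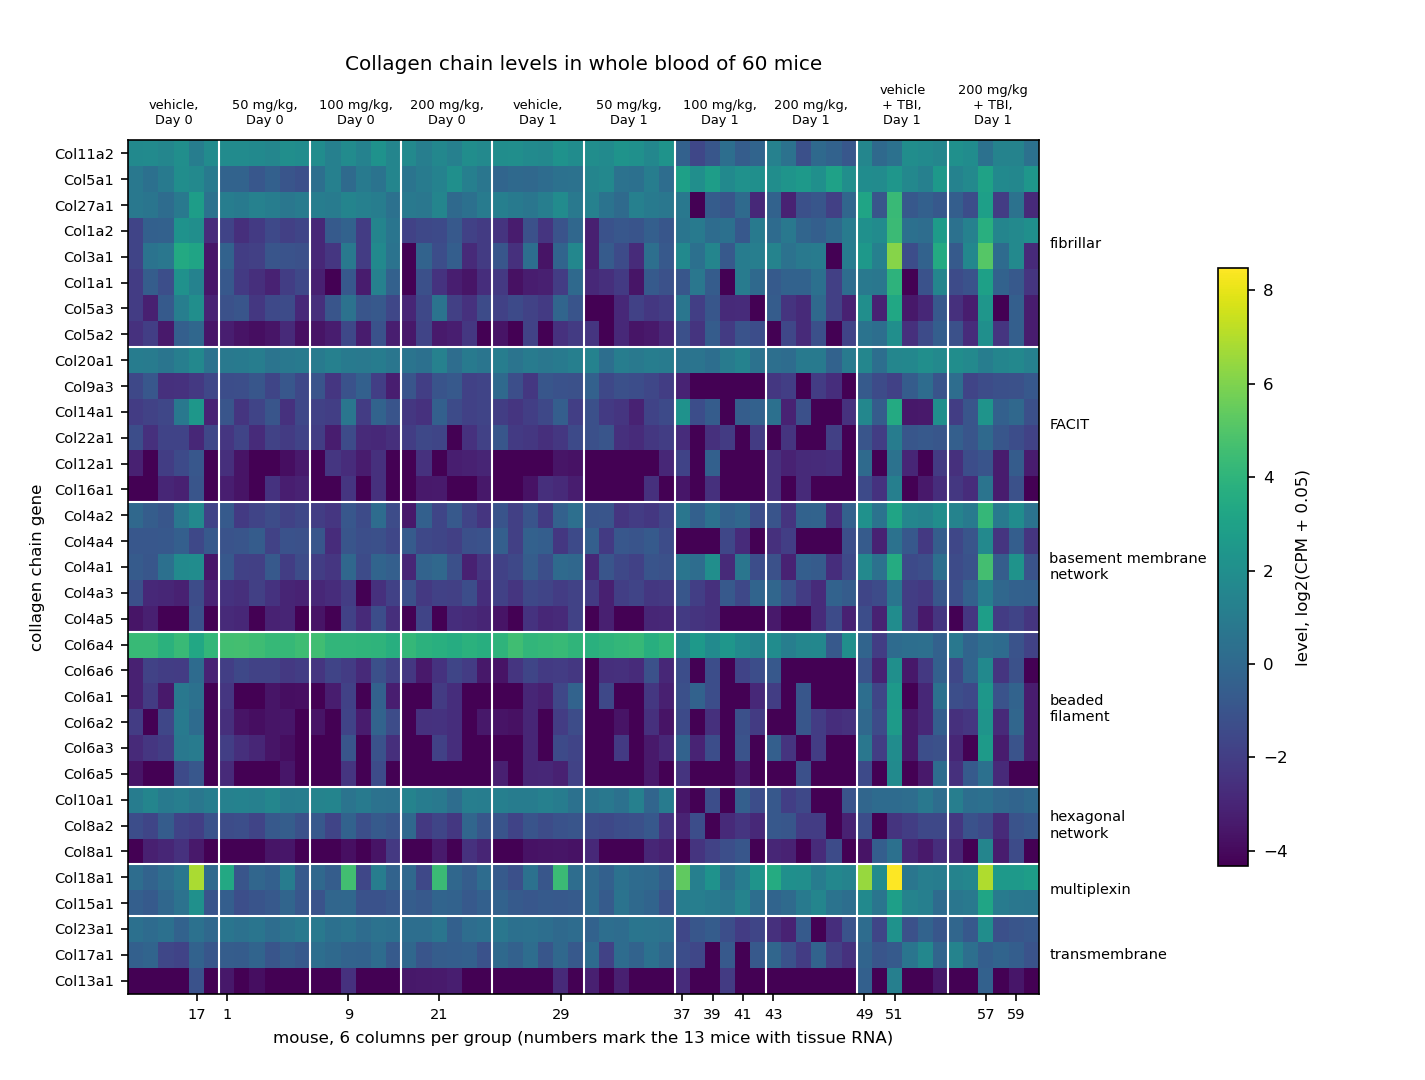
Level of each of the 33 collagen chains (rows, by structural class) in each of the 60 mice (columns, by group), as log2(CPM + 0.05), where a brighter cell is a higher level and the numbers mark the 13 mice with tissue RNA. The columns of mice 51 and 57 are the brightest over most rows, and the row of Col6a4 is bright in every group except those at 100 and 200 mg/kg on Day 1 and both irradiated groups.

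Mice with tissue RNA held more collagen RNA than the others, at overlapping levels. The 33 chains summed to 18.5 to 75.5 CPM (median 33.8) in the 47 mice without tissue RNA and to 27.6 to 592 CPM (median 63.3) in the 13 with it, so the ranges overlapped. Without Col18a1 the other 32 chains summed to 15.5 to 73.8 CPM (median 32.9) and 24.5 to 237 CPM (median 42.5). The 13 mice held 25.6% of all counts, and 21 of the 33 chains had over 50% of their counts in them. The highest single level lay in a tissue RNA mouse for 26 chains, 16 of them in mouse 51 (vehicle + TBI) and 10 in mouse 57 (200 mg/kg + TBI). The highest single levels within each class were 70.8 CPM for Col3a1, a major chain of loose connective tissue, 11.1 CPM for Col14a1, a FACIT chain, 355 CPM for Col18a1 and 4.59 CPM for Col23a1, a transmembrane chain, all in mouse 51, and 24.9 CPM for Col4a1, a core chain of every basement membrane, in mouse 57. Of the remaining classes, Col6a4 peaked at 25.5 CPM in mouse 2 and Col10a1, known from hypertrophic cartilage, at 2.90 CPM in mouse 4, both at the low dose on Day 0 and both without tissue RNA.

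Per kilobase of exon, the order of the chains in the 47 mice without tissue RNA was led by a chain that is not among the classical matrix collagens. The median was 1.75 CPM per kilobase for Col6a4, 0.59 for Col10a1, 0.48 for Col11a2, 0.37 for Col20a1 and 0.25 for Col5a1. Col23a1 (0.19), Col18a1 (0.16), Col15a1 (0.13), Col27a1 (0.12) and Col17a1 (0.12) followed. The chains of types I and III, which make up most of the collagen of skin, bone and vessel wall, came lower, with 0.056 CPM per kilobase for Col3a1, 0.046 for Col1a2 and 0.031 for Col1a1. Over all 47 mice together, neighbours in this order did not separate beyond the spread between mice, Col6a4 included: the range was 0.201 to 25.5 CPM for Col6a4, 0.281 to 4.76 CPM for Col11a2, 0.759 to 4.02 CPM for Col20a1 and 0 to 2.90 CPM for Col10a1. These ranges pool groups that differed, and after TBI the Col6a4 medians of 0.946 and 0.942 CPM lay below those of Col11a2, Col20a1 and Col5a1.

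Col18a1, whose chain carries the anti-angiogenic fragment endostatin and which hepatocytes are known to make, was higher in the 11 mice that met the hepatocyte list than in nearly all others. It ran from 4.56 to 355 CPM in those mice and from 0.283 to 6.87 CPM, with a median of 1.13, in the other 49. The 2 ranges overlapped only near their ends, and 94.3% of all Col18a1 counts lay in the 13 mice with tissue RNA. The summed level of the 16 hepatocyte genes was 312 to 36213 CPM in the 11 mice and 3.90 to 155 CPM in the other 49. Per 1000 CPM of the hepatocyte list, Col18a1 stood at 7.22 to 9.99 CPM in 10 of the 11 mice, and at 14.6 CPM in mouse 39, the median over all 11 being 8.94 CPM. The ratio therefore varied less than 1.5 times across 10 mice whose Col18a1 level itself ran over a far wider range.

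**Figure D2:**
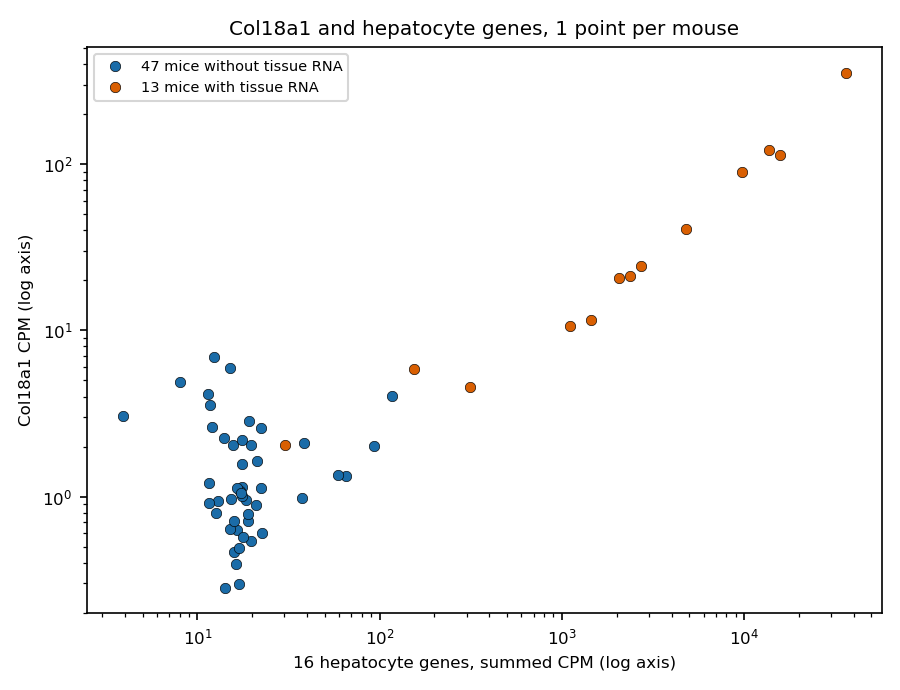
Col18a1 level (CPM, log axis) against the summed level of 16 hepatocyte genes (CPM, log axis) in each of the 60 mice, with orange points for mice with tissue RNA. The 11 mice that met the hepatocyte list run from 312 to 36213 CPM on the horizontal axis and lie close to 1 line, and the other 49 sit at or below 155 CPM there with Col18a1 at 0.283 to 6.87 CPM.

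Col6a4, a beaded filament chain of the type VI family, was high in 6 of the 10 groups and low in the other 4. On Day 0 it lay at 10.2 to 20.5 CPM (median 18.6) in vehicle mice, 19.0 to 25.5 (22.4) at the low dose, 13.1 to 23.4 (16.8) at the middle dose and 12.1 to 18.0 (13.8) at the high dose. On Day 1 it lay at 16.2 to 23.1 CPM (17.7) in vehicle mice and 13.0 to 19.3 (16.2) at the low dose, against 2.62 to 6.12 (3.44) at the middle dose and 0.542 to 3.97 (2.95) at the high dose. After TBI it lay at 0.201 to 1.21 CPM (0.946) on vehicle and 0.239 to 1.67 (0.942) at the high dose. No mouse at 100 or 200 mg/kg on Day 1, and no irradiated mouse, reached the lowest of the other 6 groups. Its share of all collagen CPM had group medians of 43.7% to 54.1% in those 6 groups, 11.4% and 10.7% at 100 and 200 mg/kg on Day 1, and 1.02% and 1.77% after TBI. The B cell marker list, all 8 genes of which reached 10 CPM in unirradiated groups, summed to 803 to 1266 CPM in vehicle mice on Day 1, 227 to 559 at the middle dose, 133 to 439 at the high dose and 44.7 to 121 after TBI on vehicle, where 5 of the 8 still reached 10 CPM, and none of the 8 was at 0 in any group. The part of these markers in the Col6a4 result was not tested.

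Col5a1, a regulator chain of fibril diameter, was higher where Col6a4 was lower on Day 1. On Day 0 it lay at 1.29 to 3.83 CPM (median 1.91) in vehicle mice, 0.384 to 0.806 (0.610) at the low dose, 1.03 to 2.74 (1.64) at the middle dose and 1.45 to 4.11 (2.10) at the high dose. On Day 1 it lay at 0.857 to 1.34 CPM (1.04) in vehicle mice and 1.14 to 3.07 (1.74) at the low dose, against 3.32 to 7.59 (4.26) at the middle dose and 3.75 to 7.91 (4.50) at the high dose. After TBI it lay at 2.30 to 5.52 CPM (3.64) on vehicle and 2.49 to 8.32 (3.26) at the high dose. Col5a1 was thus low in all 6 mice at the low dose on Day 0 and, on Day 1, above every vehicle mouse in all mice at 100 or 200 mg/kg or after TBI. The platelet marker list, 8 of 8 genes at 10 CPM in every group, summed to 2182 to 4491 CPM in vehicle mice on Day 0 and 1039 to 2522 at the low dose, and on Day 1 to 1869 to 3751 CPM in vehicle mice, 14178 to 30890 at the middle dose, 13594 to 23664 at the high dose and 3606 to 25852 after TBI on vehicle. The endothelial and fibroblast lists moved the same way. Endothelial sums had medians of 437 CPM in vehicle mice and 235 at the low dose on Day 0. On Day 1 they were 251 in vehicle mice, 1309 and 1957 at the middle and high doses and 1057 after TBI on vehicle. Fibroblast medians were 115, 65.1, 73.3, 363, 452 and 383 in the same order. Of the 8 endothelial and 10 fibroblast genes, 2 to 6 and 2 or 3 reached 10 CPM. The part of any of these lists in the Col5a1 result was not tested.

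**Figure D3:**
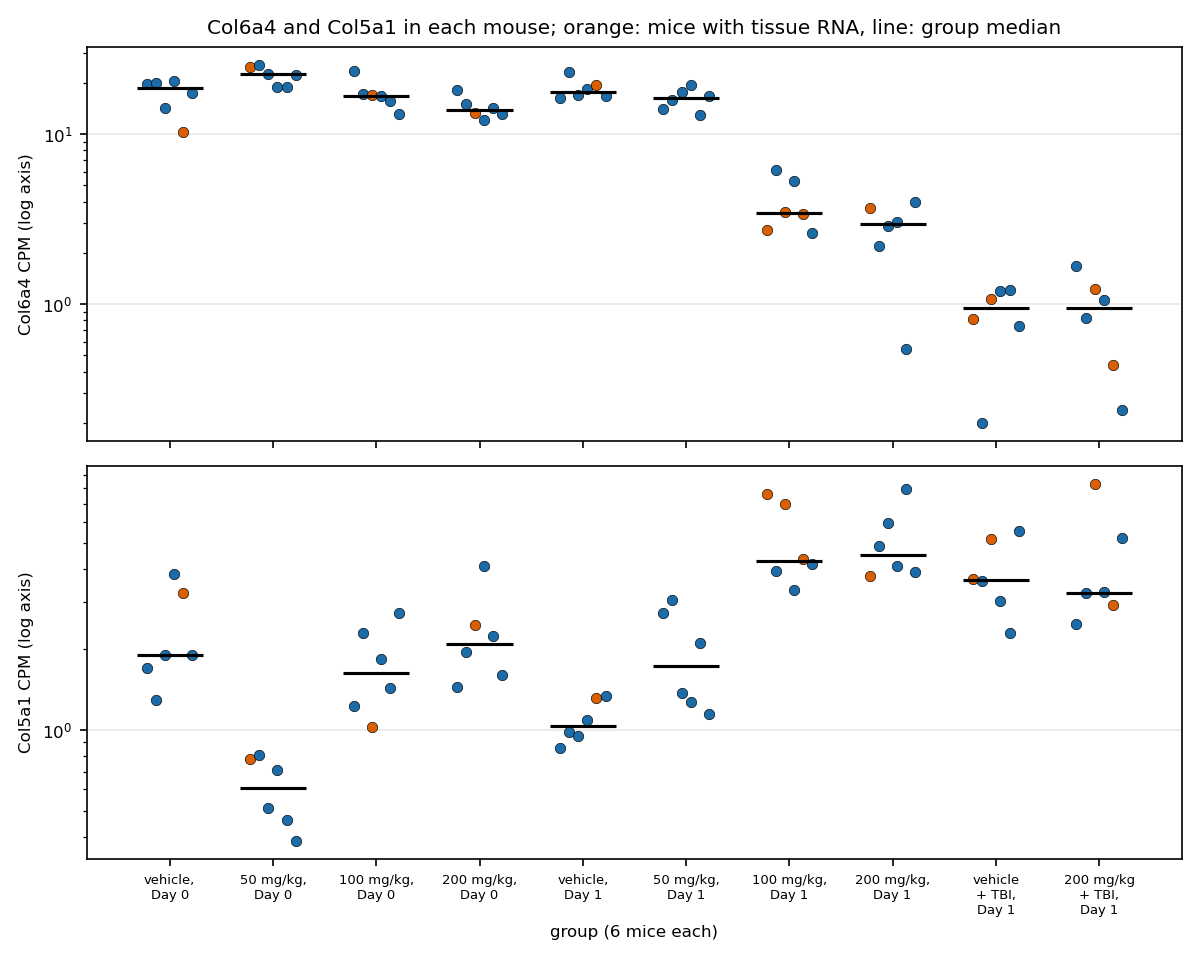
Level of Col6a4 and of Col5a1 (CPM, log axes) in each mouse by group, with orange points for mice with tissue RNA and a line at the group median. Col6a4 lies at 6.12 CPM or below at 100 and 200 mg/kg on Day 1 and after TBI and above 10 CPM elsewhere, while the group median of Col5a1 is lowest at 50 mg/kg on Day 0 (0.610 CPM) and highest at 100 and 200 mg/kg on Day 1 (4.26 and 4.50 CPM).

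Of the other chains of every mouse, Col15a1, the other multiplexin, was low on Day 0 apart from mice 16 and 17. It lay at 0.451 to 4.17 CPM (median 0.803) in vehicle mice of Day 0, the highest being mouse 17 with tissue RNA and the next mouse 16 at 1.38 CPM. At the low, middle and high doses it lay at 0.374 to 0.846 (0.518), 0.418 to 0.922 (0.472) and 0.545 to 0.809 (0.668). On Day 1 it lay at 0.503 to 0.772 CPM (0.569) in vehicle mice, 0.401 to 1.43 (0.895) at the low dose, 1.18 to 2.57 (1.93) at the middle dose and 0.807 to 2.74 (1.29) at the high dose. After TBI it lay at 1.08 to 7.44 CPM (2.39) on vehicle and 1.58 to 9.23 (1.70) with the high dose. Every mouse of the middle and high doses on Day 1, and every irradiated mouse, thus lay above every vehicle mouse of that day. With library totals in place of trimmed mean of M-values, each of these groups overlapped the vehicle mice.

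Col11a2, a fibrillar chain best known from cartilage, kept to 2.11 to 4.76 CPM in vehicle and low dose mice of both days and in the middle and high dose mice of Day 0. On Day 1 it lay at 0.281 to 1.20 CPM (median 0.683) at the middle dose and 0.383 to 2.38 (0.868) at the high dose. After TBI it lay at 1.00 to 3.80 CPM (2.85) on vehicle and 1.30 to 4.20 (2.56) with the high dose, between the other ranges and overlapping both. Col20a1, a FACIT chain, had group medians between 1.46 and 2.94 CPM, both irradiated groups at the top, and passed the test in none of the 10 comparisons. Col18a1 had group medians of 0.796 to 1.13 CPM on Day 0 and of 0.852 and 0.993 CPM in vehicle and low dose mice of Day 1. Its medians were 3.41 CPM at the middle dose and 3.53 CPM at the high dose on Day 1, and 2.86 and 5.91 CPM after TBI on vehicle and with the high dose, 3 of the 6 middle dose mice carrying tissue RNA. The lowest mouse of the high dose on Day 1, at 2.05 CPM, lay above the highest low dose mouse of that day, at 1.34 CPM, a group without tissue RNA. With library totals in place of trimmed mean of M-values these groups overlapped. Against vehicle on Day 1, Col18a1 at 200 mg/kg did not pass the test with all mice, and passed it without the tissue RNA mice.

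Of the chains present in most mice, Col10a1, Col23a1 and Col27a1 shared a low level at the middle and high doses on Day 1. Col10a1 lay at 1.14 to 2.90 CPM over the 4 groups of Day 0 and at 0.853 to 2.35 CPM over vehicle and low dose mice of Day 1. At the middle dose it lay at 0 to 0.680 CPM (median 0.198) and at the high dose at 0 to 0.525 (0.247), below every mouse just named. After TBI it lay at 0.880 to 1.67 CPM (1.11) on vehicle and 0.835 to 2.16 (1.10) with the high dose. Col23a1 lay at 0.977 to 1.66 CPM (1.23) in vehicle mice of Day 1, 0.194 to 0.600 (0.324) at the middle dose, 0 to 0.574 (0.115) at the high dose and 0.267 to 4.59 (0.638) after TBI on vehicle. Col27a1, a fibrillar chain of cartilage, lay at 1.59 to 3.56 CPM (1.99), 0 to 1.71 (0.531), 0.0689 to 0.868 (0.436) and 0.468 to 20.3 (0.615) in the same 4 groups. The highest irradiated value of Col23a1 and of Col27a1 belonged to mouse 51, and the median mice of that group lay low. These levels rest on few reads, since the median at the high dose on Day 1 corresponded to 3 counts for Col10a1, 2 for Col23a1 and 4.5 for Col27a1. Col17a1, an adhesion chain of epithelia, had medians of 0.596 to 0.979 CPM in the other 8 groups and 0.316 and 0.315 CPM at the middle and high doses on Day 1.

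The chains of connective tissue and basement membrane were present in fewer mice, and in more of the irradiated mice than of the vehicle mice of Day 1. Col1a2 was present in 46 mice and Col1a1 in 33, Col3a1 in 45, Col4a1 in 45 and Col4a2 in 46. All 12 irradiated mice had Col1a2, Col4a1 and Col4a2, against 3, 5 and 4 of the 6 vehicle mice of Day 1. This was not particular to TBI for the fibrillar chains. Every unirradiated mouse at the middle and high doses on Day 1 also had Col1a2. Col3a1 and Col1a1 were present in as many mice of those doses as of the irradiated groups. Col4a1 was missed in some mice at both doses and Col4a2 in some at the high dose. The kidney and lens basement membrane chains Col4a4, Col4a3 and Col4a5 were present in 40, 25 and 8 mice, and Col4a4 was missed in 5 of 6 mice at both the middle and the high dose on Day 1. Of the FACIT chains, Col9a3 was present in 37 mice and in none at the middle or high dose on Day 1, Col14a1 in 33, Col22a1 in 21 and Col12a1 in 8. Col5a3 and Col5a2, partners of Col5a1, were present in 27 and 19 mice. The beaded filament chains other than Col6a4 were scarcer: Col6a1 was present in 19 mice, Col6a6 in 18, Col6a2 and Col6a3 in 16 each and Col6a5 in 9. Of the hexagonal network chains of the cornea and vessel wall, Col8a2 was present in 41 mice and Col8a1 in 7, the latter in none of Day 0. In mice without tissue RNA the highest level was 11.2 CPM for Col3a1, 6.41 CPM for Col1a2, 4.46 CPM for Col1a1 and 3.82 CPM for Col4a2, the first 2 and the last in mouse 54 and Col1a1 in mouse 16. With the marker genes counted from 3 CPM in place of 10, 25 mice carried tissue RNA, mice 16 and 54 among them. The highest levels in the remaining 35 were 3.37 CPM for Col3a1 and 2.42 CPM for Col1a1 in mouse 11, 4.15 CPM for Col1a2 in mouse 60 and 2.88 CPM for Col4a2 in mouse 52.

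On Day 0 the 6 chains that passed the test at the low dose against vehicle were all lower: Col1a2, Col3a1, Col5a1, Col5a2, Col4a2 and Col6a2. A gene was called when its adjusted p, from edgeR's quasi-likelihood test with Benjamini-Hochberg adjustment over all genes tested, was under 0.05 and its log2 fold change over 1 in size. Of the 33 chains tested, 0 were called higher and 6 lower (18.2%), against 4.50% of all genes called, 0.127% higher and 4.38% lower. The log2 fold change was -1.91 (SE 0.29, adjusted p = 0.00255) for Col5a1, whose groups did not overlap, -2.89 (0.78, 0.0271) for Col1a2, a chain of type I collagen, -3.15 (0.96, 0.0466) for Col3a1 and -1.88 (0.54, 0.0355) for Col4a2, a chain of the basement membrane network. Col5a1 was the only chain without overlap, against 6.93% of all genes, and the only chain called in all 12 refits that left out 1 mouse. Col1a2 lay at 0.104 to 4.58 CPM (median 0.725) in vehicle mice and 0.115 to 0.304 CPM (0.234) at the low dose, so its high values lay in vehicle mice. The median log2 fold change was -1.74 over the chains and 0.03 over all genes. The number of calls ran from 1 (without mouse 2, 3, 4 or 16) to 10 (without mouse 18), and without the 1 tissue RNA mouse in each group it was 3 (Col4a2, Col6a1 and Col5a1). Over all genes that last fit called 19 of 23442 higher and 815 lower. With library totals in place of the scaling factors the median over all genes was 0.69. With these totals 3 chains were called higher (Col9a3, Col6a4 and Col23a1) and 6 lower. The split over all genes turned from 31 higher and 1072 lower to 2563 higher and 307 lower. The gene Gm26917 took 6.32% to 12.9% of all counts at the low dose and 3.55% to 8.02% in vehicle mice. Its part in these results was not tested.

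Against the same vehicle mice, 100 and 200 mg/kg on Day 0 gave no called chain, as did 50 mg/kg on Day 1 against vehicle of that day and vehicle on Day 1 against vehicle on Day 0. edgeR's quasi-likelihood test with Benjamini-Hochberg adjustment called 0 of 33 chains at the middle dose and 0 of 33 at the high dose on Day 0, with 3 and 10 chains at an unadjusted p under 0.05, the share over all genes being 0% in both, and no chain had groups without overlap, against 0.188% and 0.298% of all genes. The lowest adjusted p of a chain was 1.0 and 0.546, and DESeq2 called 0 chains in each. At 50 mg/kg on Day 1, 0 of 31 chains were called, 5 had an unadjusted p under 0.05, DESeq2 called 0, no chain was without overlap (1.49% of all genes), and the lowest adjusted p was 0.134, which belonged to Col5a1 at a log2 fold change of 0.83 (SE 0.26). Between the vehicle groups 0 of 33 chains were called, 7 had an unadjusted p under 0.05, DESeq2 called 1, no chain was without overlap (0.693% of all genes), and the lowest adjusted p was 0.204, again for Col5a1, at -1.08 (0.26). Col5a1 therefore had the lowest adjusted p in each of the last 2 comparisons without passing the threshold.

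On Day 1 the chains went both ways at 100 and 200 mg/kg. Col6a4, Col11a2, Col10a1, Col23a1 and Col27a1 were lower, and Col5a1, Col15a1 and Col1a2 higher, at both doses, which share their vehicle mice. At 100 mg/kg 15 of 32 chains were called (46.9%), 7 higher and 8 lower, against 48.8% of all genes, 18.2% higher and 30.6% lower. At 200 mg/kg 12 of 31 were called (38.7%), 4 higher and 8 lower, against 47.8% of all genes, 17.3% higher and 30.5% lower. The share of chains called was thus near that of all genes at both doses, and 7 chains had groups that did not overlap at each dose, against 47.6% and 47.0% of all genes.

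By edgeR's quasi-likelihood test with Benjamini-Hochberg adjustment, Col6a4 had a log2 fold change of -2.17 (SE 0.22, adjusted p = 1.33e-06) at the middle dose and -2.67 (0.29, 2.44e-06) at the high dose. Col5a1 had 2.26 (0.24, 1.79e-06) and 2.28 (0.24, 1.27e-06), and Col11a2 -2.38 (0.28, 6.15e-06) and -1.70 (0.36, 0.001). These 3 chains were called at both doses in all 12 refits that left out 1 mouse. Col10a1 had -2.98 (0.66) and -2.80 (0.54), Col23a1 -1.74 (0.30) and -2.43 (0.54), and Col27a1 -1.62 (0.62) and -2.10 (0.45), all called, although Col27a1 at the middle dose lost its call without mouse 29, 39, 40 or 42. Col1a2 had 2.01 (0.56, 0.00639) and 1.86 (0.57, 0.0104), and Col15a1 had 1.75 (0.24, 2.48e-05) and 1.42 (0.33, 0.00195). The higher calls depended on the scaling between libraries. The scaling factors, computed over all mice of the study together, were 0.41 to 0.68 at these doses against 1.15 to 1.63 in vehicle mice. With library totals in place of this scaling the median over all genes was -1.76 and -1.96 on the log2 scale, against -0.38 and -0.48. With these totals 0 chains were called higher, with 12 and 13 lower, against 980 genes higher and 14735 lower, and 712 and 15407. Col5a1 then had 0.89 and 0.72, under the fold limit, Col1a2 0.75 and 0.45, and Col15a1 0.36 and -0.13, a change of sign at the high dose, while Col6a4 had -3.55 and -4.15. Without the tissue RNA mice, the calls were 5 higher and 7 lower of 29 chains at the middle dose and 4 higher and 9 lower of 29 at the high dose. Over all genes those fits called 3911 of 22232 higher and 5889 lower, and 4245 of 22601 higher and 7540 lower. The erythroid marker list summed to 78679 to 117157 CPM in vehicle mice and 276358 to 624072 CPM at the high dose. The gene Gm26917 took 5.32% to 8.77% of all counts in vehicle mice of Day 1. Its share was 0.134% to 0.454% at the middle dose and 0.0562% to 1.46% at the high dose. The part of these shifts in the scaling and in the chain results was not tested.

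**Figure D4:**
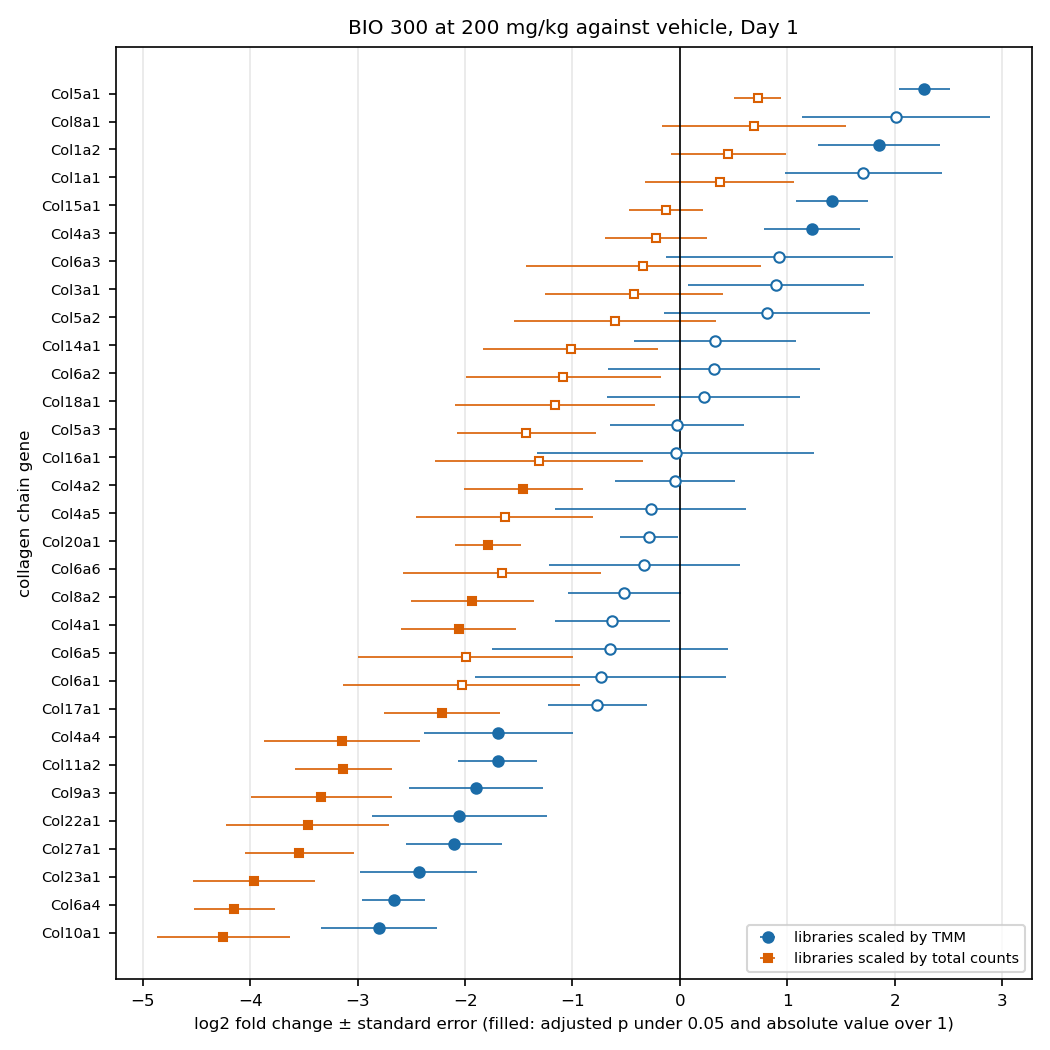
Log2 fold change with its SE for each chain tested at 200 mg/kg against vehicle on Day 1, with scaling by trimmed mean of M-values and with library totals, where filled symbols mark called chains. With the first scaling 4 chains are called higher and 8 lower, and with library totals all points lie further down, with 0 called higher and 13 lower.

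After TBI most chains were higher than in unirradiated vehicle mice of the same day, and Col6a4 was lower. Of 33 chains tested, 19 (57.6%) were called higher and 1 (3.03%) lower, against 19.6% and 16.4% of all genes, 36.0% in either direction. The median log2 fold change was 2.64 over the chains and 0.09 over all genes. Of the 33 chains, 5 had groups that did not overlap, against 25.1% of all genes. Type I, III and V chains, the fibril formers of connective tissue, were among those higher, together with type IV, VI and FACIT chains and Col15a1.

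Col6a4 had a log2 fold change of -4.41 (SE 0.35, adjusted p = 3.32e-06 by edgeR's quasi-likelihood test with Benjamini-Hochberg adjustment). Among the chains that rose, Col1a2 had 4.11 (0.84, 0.00168), Col4a2 2.85 (0.53, 0.00085), Col15a1 2.32 (0.41, 0.000595) and Col5a1 1.79 (0.24, 9.51e-05). Col1a2 lay at 0.0491 to 0.921 CPM (median 0.270) in vehicle mice and 1.13 to 21.2 (3.92) after TBI, and Col4a2 at 0.172 to 1.21 (0.454) and 1.40 to 8.90 (3.35). Every irradiated mouse thus lay above every vehicle mouse for both chains, tissue RNA or not, although the Col4a2 groups overlapped with library totals. Col1a1, the partner of Col1a2 in type I collagen, had 3.79 (1.22, 0.0226), Col3a1 3.95 (1.29, 0.0242) and Col4a1, the partner of Col4a2, 2.31 (0.80, 0.0319). Col3a1 lay at 0.0287 to 2.95 CPM (0.652) in vehicle mice and 0.360 to 70.8 CPM (3.93) after TBI, so its groups overlapped. Col1a1 lost its call without mouse 51, Col3a1 without mouse 25 or 51, and Col4a1 without mouse 25, 26, 27, 28 or 51. Without mouse 51 alone 10 chains were called, and without mouse 52 alone 23.

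Mice 29, 49 and 51 carried tissue RNA in this comparison, and the calls changed without them. In the remaining 9 mice, 4 irradiated and 5 on vehicle, 8 of 31 chains were called higher and 3 lower. Over all genes the same fit called 4813 of 23274 higher and 5476 lower. The median was 0.84 over the chains against -0.16 over all genes. Of these 9, mice 27 and 30 on vehicle and mice 50 and 54 after TBI met the looser limit of 3 CPM for tissue RNA. Col1a2 (3.24), Col4a2 (2.45), Col5a1 (1.82) and Col15a1 (1.65) remained higher and Col6a4 (-4.35) lower on the log2 scale. Col3a1 had 1.99 (adjusted p = 0.0773 by edgeR's quasi-likelihood test with Benjamini-Hochberg adjustment) and Col1a1 2.19 (0.0624), neither called. Col27a1 turned from 1.19, not called, to -1.74 (SE 0.25, adjusted p = 2.73e-05), Col23a1 was called lower at -1.35, and Col18a1, with all mice at 4.12 (1.64, 0.0541) and not called, had 1.57 (0.36, 0.00182). In vehicle and irradiated vehicle mice, respectively, Dcn, a matrix proteoglycan made by fibroblasts, ran from 0.09 to 2.46 and from 0.17 to 43.1 CPM, and Cdh5, the cadherin of endothelial cells, from 0.34 to 1.01 and from 0.63 to 12.6 CPM. Of the 10 fibroblast markers, 2 reached 10 CPM in any vehicle mouse and 3 in any irradiated one, and of the 8 endothelial markers 2 and 6 did, none being at 0 in either group. Their part in the chain results was not tested.

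**Figure D5:**
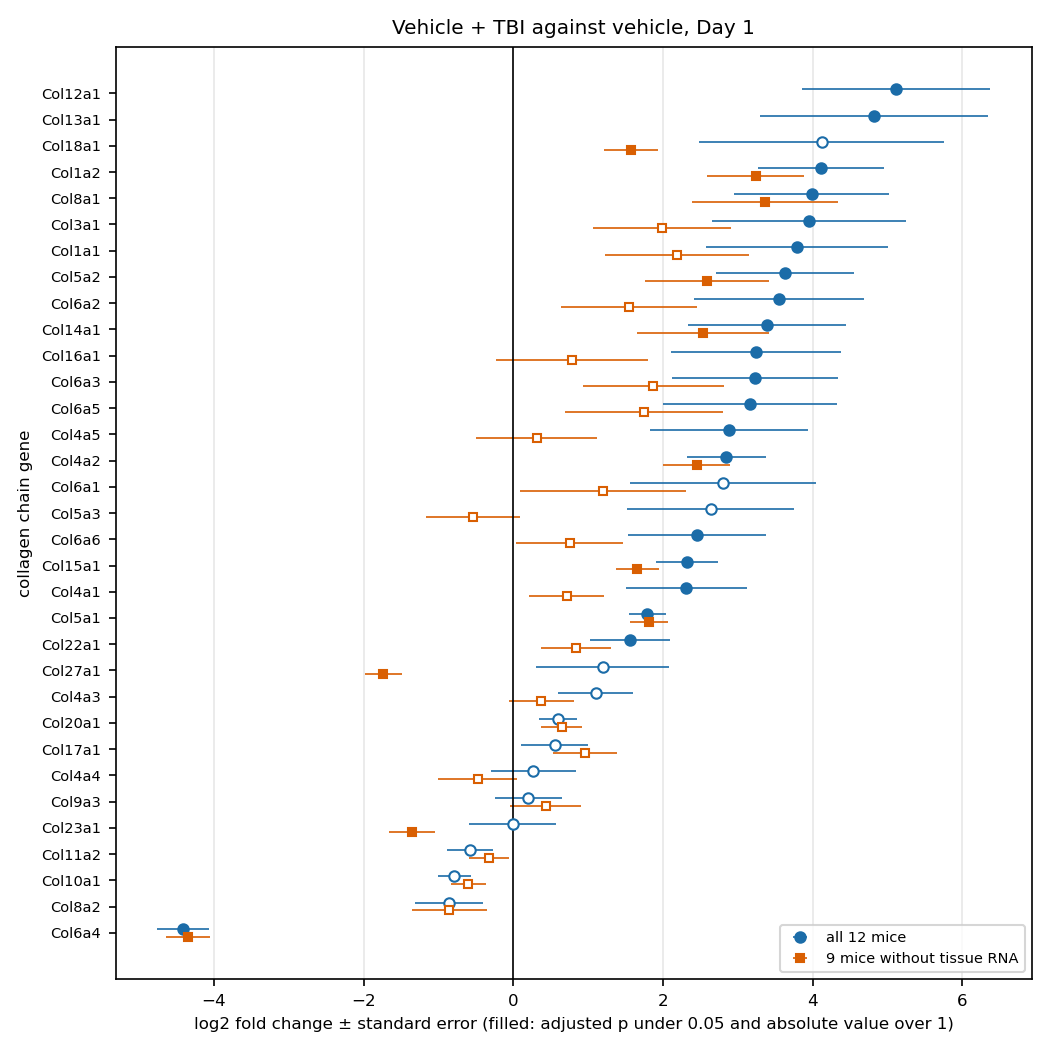
Log2 fold change with its SE for each chain after TBI against vehicle on Day 1, in all 12 mice (circles) and in the 9 mice without tissue RNA (squares), where filled symbols mark called chains. With all mice 19 chains are called higher and 1 lower, and without the tissue RNA mice 8 are called higher and 3 lower, with Col6a4 lowest in both.

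The same irradiated mice were also set against vehicle mice of Day 0. Of 33 chains, 3 were called higher (Col4a2, Col22a1 and Col8a1) and 1 lower (Col6a4), together 12.1%, against 15.1% of all genes higher, 11.8% lower and 26.9% in either direction, and 1 chain had groups without overlap, against 18.8% of all genes. Col6a4 had a log2 fold change of -4.19 (SE 0.37, adjusted p = 1.68e-05 by edgeR's quasi-likelihood test with Benjamini-Hochberg adjustment) and Col4a2 1.78 (0.58, 0.0285). Col5a1 had 0.82 (0.30, 0.0483), under the fold limit. The median was 1.29 over the chains and 0.18 over all genes. Without mouse 15 the number of called chains was 2, without mouse 17 it was 7, and without the 3 mice with tissue RNA 6 of 31 chains were called higher and 3 lower. Over all genes that last fit called 4431 of 22568 higher and 4838 lower, so calls rose for all genes too. Col4a2 lost its call without mouse 13, 14, 15 or 51.

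Among irradiated mice, 200 mg/kg of BIO 300 against vehicle gave 0 of 33 called chains by edgeR's quasi-likelihood test with Benjamini-Hochberg adjustment, none at an unadjusted p under 0.05, 0 by DESeq2 and 0% of all genes, with a lowest adjusted p of 1.0. No chain had groups without overlap, against 0.0682% of all genes. Col6a4 had a log2 fold change of 0.02 (SE 0.50). Col1a2 lay at 1.30 to 13.4 CPM (median 3.01) at the high dose and 1.13 to 21.2 CPM (3.92) on vehicle, and Col3a1 at 0.0955 to 33.8 (2.03) and 0.360 to 70.8 (3.93). The spread between mice within each irradiated group was wide, and mice 49, 51, 57 and 59 carried tissue RNA.

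Whether the effect of a dose differed between days, or with TBI, was tested as an interaction. Between Day 0 and Day 1 the effect of 200 mg/kg differed for 13 chains, 7 upward and 6 downward, against 36.7% of all genes (13.1% and 23.6%), and that of 100 mg/kg for 17, 9 and 8, against 42.0% (15.7% and 26.3%). That of 50 mg/kg differed for 3 chains, all upward, against 7.69% (6.73% and 0.961%). With library totals the split was 3 upward and 11 downward for the high dose, 1 and 11 for the middle dose and 1 (Col5a1) and 5 for the low dose, the median over all genes being -1.58, -1.83 and -1.05, against -0.35, -0.37 and -0.08. For Col6a4 the difference between days was -2.43 at the high dose and -2.20 at the middle dose on the log2 scale, for Col5a1 2.28 and 2.64, and for Col15a1 2.43 and 2.90. At 50 mg/kg it was 2.75 for Col5a1, which was low on Day 0, and 1.82 for Col15a1. Between irradiated and unirradiated mice of Day 1 the effect of 200 mg/kg differed for 4 chains, 3 upward and 1 downward, against 29.6% (19.5% and 10.0%), and with library totals 9 upward and 0 downward, the median over all genes being 1.68 in place of 0.60. The difference was 2.93 for Col6a4, 3.09 for Col10a1, 1.91 for Col11a2 and -1.98 for Col5a1. No chain was called between the irradiated groups. These signs, each opposite to the effect of 200 mg/kg without TBI, therefore follow largely from that effect and do not show a reversed effect after TBI.

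Partner chains that are built into the same trimer were compared per kilobase, in mice with at least 100 counts for the pair. Col1a1 stood to Col1a2 at a ratio of 0.319 to 1.84, median 1.13, in 8 mice, and Col4a1 to Col4a2 at 0.284 to 1.19, median 1.06, in 6 mice. Type I collagen is assembled with more alpha 1 than alpha 2 chains, as is the common type IV network, and the RNA ratios spanned 1 for both pairs. Mice 51 and 57 alone had enough reads for type VI, where Col6a1 stood to Col6a2 at 1.84 and 2.12 and Col6a3 to Col6a1 at 0.229 and 0.416. Col5a1 exceeded Col5a2, its usual partner, by 1.51 to 22.3 times in 6 mice, and mouse 60 is left out of that range because it had a single Col5a2 count. Col4a1 and Col4a2 are neighbours that overlap by 22 bases, and the starts of Col4a3 and Col4a4 lie 71 bases apart. Exons of Col9a3 share 234 bases (6.1%) with Tcfl5 on the other strand and those of Col4a3 563 bases (5.6%) with C430014B12Rik, so their low counts are less certain, and the other chains shared at most 1.9%.

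Of 56 listed genes that fold, secrete, process, crosslink, bind or degrade collagen, the share called stood above that of all genes after TBI, near it at the middle dose and below it at the high dose on Day 1. After TBI against vehicle on Day 1, 32 of 55 tested (58.2%) were called higher and 0 lower, against 19.6% and 16.4% of all genes: 9 of 13 for propeptide processing and crosslinking, 5 of 5 proteoglycans tested, 8 of 20 for folding and secretion, 4 of 6 proteases and 6 of 11 receptors. At 200 mg/kg on Day 1 15 of 54 were called higher and 4 lower (35.2%), against 47.8% of all genes, and at the middle dose 20 of 53 higher and 6 lower (49.1%), against 48.8%. With library totals the split turned to 5 higher and 22 lower and to 6 higher and 24 lower, and without the tissue RNA mice the count after TBI was 22 higher and 4 lower. Over all genes the same fits called 712 higher and 15407 lower, 980 and 14735, and 4813 and 5476. The platelet collagen receptor Gp6 rose by 2.60 (SE 0.36) after TBI, 3.07 (0.20) at the high dose and 2.91 (0.25) at the middle dose on the log2 scale, and the integrin chains Itga2 (2.10, 2.59 and 2.47) and Itgb1 (2.05, 2.64 and 2.47), which pair into another platelet receptor for collagen, rose alongside. Loxl1, a crosslinking oxidase, rose by 3.03 (0.16) at the high dose and 2.75 (0.24) at the middle dose, and with library totals Gp6, Itga2, Itgb1 and Loxl1 were still above 1 at both doses. Among the proteases Mmp9, the neutrophil gelatinase, rose by 3.00 (0.32) after TBI, from 36.2 CPM ± 9.33 (SD, n = 6) to 294 ± 126, and Mmp8, the neutrophil collagenase, by 1.78 (0.39). The neutrophil markers summed to 406 to 674 CPM in vehicle mice and 1072 to 6305 CPM after TBI. Mmp8 is itself on that marker list, so the sum is not independent of it. Colgalt1, which adds galactose to collagen lysines, had -1.87 at the high dose and -1.72 at the middle dose. Of the fibroblast products, Dcn had 3.81 (1.28) and the procollagen protease Bmp1 4.45 (1.64) after TBI, the latter 1.82 without the tissue RNA mice. The part of the platelet and neutrophil markers in these results was not tested.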

How the data were processed

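Whole blood RNA was collected in PAXgene tubes. Per the labels the libraries were made by polyA selection, whereas the study's methods name a stranded total RNA kit with ribosomal and globin depletion, so the preparation is uncertain. The authors used Trimmomatic 0.36 for trimming, STAR 2.5.2b for alignment to GRCm38 and Subread 1.5.2 for the deposited raw counts of unique reads per gene, and the annotation release and strand setting are not given in the sources used here. Their comparison tables, made with DESeq2, also hold fold changes and p-values, which were not used; only identifiers and symbols were read from them. Groups came from the labels and doses from the study's methods. Coordinates and exon lengths came from GENCODE M21.

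Genes with at least 10 counts over the mice of a comparison were fitted with edgeR 4.0.16 (trimmed mean of M-values, quasi-likelihood F-test, R 4.3.3) and p-values were adjusted by Benjamini-Hochberg over all genes tested. DESeq2 1.42.0, filterByExpr, no filter, library totals, leaving out each mouse and leaving out tissue RNA mice were alternatives. Named chains were those of every mouse, the highest of each class, called chains at 1 CPM or more whose groups did not overlap, and partners of types I, IV and VI; pathway genes were called ones at 10 CPM or more, up to 4 per list. The members and lists were chosen with earlier results of these data known. The models were checked on simulated counts, in which only genes of higher counts were changed, at a fixed dispersion. That check does not reach chains of few reads or groups whose scaling factors differ.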

Additional observations from a re-analysis of the deposited data

Results flagged for a closer look

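In groups of 6 mice, 1 mouse stood apart when its gap to the next exceeded Dixon's limit for a share of the group's range, which chance passes in about 1 of 20 groups. This was so in 35 of 130 checks of 13 measures in 10 groups, and 29 of the 35 were mice with tissue RNA. For the summed level of the 33 chains these were mouse 17 (189 CPM), mouse 1 (54.7), mouse 21 (56.4), mouse 29 (63.3), mouse 37 (76.1), mouse 51 (592) and mouse 57 (311). For Col18a1 they were mouse 17 (114 CPM), mouse 1 (10.6), mouse 9 (24.2), mouse 21 (21.1), mouse 29 (20.7), mouse 37 (41.0), mouse 43 (11.5), mouse 51 (355) and mouse 57 (122), each with tissue RNA and in a different group, and beside mouse 51 the group also held mouse 49 at 89.6 CPM. Mouse 57 also stood apart for Col15a1 (9.23 CPM), Col23a1 (3.82), Col27a1 (7.49), Col1a2 (13.4), Col4a2 (18.6) and Col3a1 (33.8), and mouse 51 for Col15a1 (7.44), Col23a1 (4.59), Col1a2 (21.2) and Col3a1 (70.8). Mouse 17 stood apart for Col15a1 (4.17 CPM) and Col27a1 (7.03), and mouse 29 for Col27a1 (3.56).

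The other 6 were mice without tissue RNA. Col15a1 stood at 0.772 CPM in mouse 25 on vehicle. Col10a1 stood low at 1.32 CPM in mouse 30 on vehicle and high after TBI in mouse 53 (1.67 CPM) and mouse 55 (2.16 CPM). Col1a2 stood at 0.541 CPM in mouse 22 and Col4a2 at 1.10 CPM in mouse 11, both dosed mice of Day 0. None of the 130 checks flagged Col6a4, Col5a1, Col11a2 or Col20a1. No 2 mice of a group were copies, the smallest chi-square per gene over 150 pairs being 12.0.

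The effect of BIO 300 differed between days or with TBI for the following chains, tested as an interaction on the log2 scale. At the high dose the Day 1 effect minus the Day 0 effect was -2.43 for Col6a4, -1.60 for Col11a2, 4.36 for Col1a2, -1.63 for Col27a1, 4.33 for Col3a1, 2.28 for Col5a1, -2.70 for Col10a1, 2.43 for Col15a1 and -2.52 for Col23a1. At the middle dose it was 2.24 for Col4a2, -2.20 for Col6a4, -2.39 for Col11a2, 2.79 for Col1a2, 2.64 for Col5a1, -2.80 for Col10a1, 2.90 for Col15a1 and -2.06 for Col23a1. At the low dose it was 3.20 for Col1a2, 2.75 for Col5a1 and 1.82 for Col15a1. The effect of 200 mg/kg with TBI minus that without was 2.93 for Col6a4, 1.91 for Col11a2, -1.98 for Col5a1 and 3.09 for Col10a1.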

How the results depend on the processing

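Leaving out 1 mouse at a time gave 1 to 10 called chains at the low dose on Day 0, 13 to 17 at the middle dose and 10 to 13 at the high dose on Day 1, 10 to 23 after TBI against Day 1 and 2 to 7 against Day 0, and 0 in the other 5 comparisons, and 21 to 26, 15 to 20 and 25 to 34 pathway genes at the middle dose, 200 mg/kg and after TBI. DESeq2 called 12 chains at the low dose on Day 0, 7 after TBI against Day 0 and 1 between the vehicle groups. With filterByExpr 11 chains and 18 pathway genes were called after TBI and 15 pathway genes at the middle dose. With library totals 2 chains were called after TBI against Day 0, 6 and 9 interactions at the low dose and with TBI, and Col4a3 (-0.22) and Col15a1 (-0.13) changed sign at the high dose on Day 1. Without tissue RNA mice the counts were 3 at the low dose on Day 0, 11 and 9 after TBI against Day 1 and Day 0, and 10, 1 and 10 interactions at the middle dose, 50 mg/kg and with TBI. Over all genes those interactions were called upward for 3260, 1585 and 6621 and downward for 5431, 153 and 3218. At 1 CPM 0 chains were in every mouse and 9 in tissue RNA mice alone, and at 0.1 CPM 0 were in tissue RNA mice alone.

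Of the single-chain calls, library totals left 46 on their side of the threshold, put 22 below it and turned 2, and leaving out tissue RNA mice left 49 and put 21 below it. No paired analysis was possible because each mouse number occurs in 1 group only. Counts of a few reads limit the chains below 0.25 CPM.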
